A study of Mus musculus with 22 samples.

Results

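The Notch genes described here are 4 receptors (Notch1, Notch2, Notch3 and Notch4), 4 ligands (Jag1, Jag2, Dll1 and Dll4), the glycosyltransferase Lfng and the target gene Hes1. These 10 genes, of 21793 protein-coding genes and 54373 genes in all, were chosen by name, with results from these data already in view, among them the values of Lfng after HDM. All 10 matched 1 Ensembl identifier in both count tables. The study asked how the aryl hydrocarbon receptor (AhR), a ligand-activated transcription factor that senses environmental chemicals, and CYP1B1, a cytochrome P450 enzyme induced by it, act in the lung epithelium during allergic airway inflammation. Epithelial cells were sorted from digested mouse lungs as live singlets that were EpCAM+ and lacked CD45 and, by the study's account of the sort, CD31, and their RNA was sequenced. At steady state there were 4 libraries from wildtype (WT) C57BL/6 mice, 3 from AhR-/- mice and 3 from CYP1B1-/- mice, all naive. The HDM groups held 4 libraries of each of these 3 genotypes. In these, mice had been sensitized through the nose with an extract of the house dust mite (HDM) Dermatophagoides farinae, challenged with it on 4 days in a row and killed 72 h after the last dose. Mice of both sexes and over 7 weeks old were used. Both knockout lines were backcrossed to C57BL/6 and lack the gene in the whole body, so every cell type of the lung carries the deletion, and whether 1 library stands for 1 mouse is not stated in the sources used here.

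Notch signalling passes between neighbouring cells. A Delta-like or Jagged ligand on the surface of one cell binds a Notch receptor on the next, ADAM proteases and then gamma-secretase cut the receptor, and the freed intracellular domain enters the nucleus, where it binds the DNA-binding protein RBPJ and a Mastermind coactivator and switches on targets such as Hes1. Fringe enzymes such as LFNG add sugars to the receptor's extracellular part, which favours signalling by Delta-like over Jagged ligands. In the lung the pathway is known for setting the balance between secretory and ciliated cells of the airway and for its part in alveolar repair, and it also acts in leukocytes and blood vessels.

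RefSeq promoter windows (GRCm38.p6, 250 bases before to 50 bases after the start site) were at hand for 9 of the 10 genes, Hes1 being the one without. The upstream parts of 2 of them are shown because Lfng and Notch2 had the lowest p-values among the 10 genes between AhR-/- and WT after HDM. Both lie on the plus strand, Lfng at chr5:140607091-140607319 and Notch2 at chr3:98013288-98013526, and both stretches end at the base before the annotated start of the gene. Capitals mark TGGGAA, the core of the RBPJ motif, and GCGTG, the core of the xenobiotic response element bound by AhR, each searched on both strands, so that the reverse complements TTCCCA and CACGC are marked as well. The 2 motifs did not overlap in either stretch.
Lfng promoter: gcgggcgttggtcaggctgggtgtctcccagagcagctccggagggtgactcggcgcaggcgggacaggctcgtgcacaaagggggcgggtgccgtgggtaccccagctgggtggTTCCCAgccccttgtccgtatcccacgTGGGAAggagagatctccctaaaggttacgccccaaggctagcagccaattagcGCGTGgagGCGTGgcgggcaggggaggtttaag
Notch2 promoter: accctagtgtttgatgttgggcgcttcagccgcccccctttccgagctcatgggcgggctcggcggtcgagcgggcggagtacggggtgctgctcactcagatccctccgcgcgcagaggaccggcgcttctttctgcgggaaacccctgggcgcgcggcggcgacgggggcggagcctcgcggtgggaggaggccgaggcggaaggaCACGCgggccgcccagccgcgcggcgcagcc
Over the full windows, TGGGAA was present in 1 of the 9 genes, Lfng, and in 25.6% of all 32851 windows in the table. In Lfng it occurred at -135 and -108 from the RefSeq start site of the window. That site lies past the end of the printed stretch, which stops before the annotated start of the gene. GCGTG was present in all 9 genes and in 32.4% of all windows. The members' windows had a median G and C content of 65.2%, against 52.7% over all windows. These matches describe the letters of the windows and are not measurements of binding.

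The deposited tables held 9654825 to 17878442 counts per library, and values are given as CPM, the count of a gene relative to those of all protein-coding genes, after TMM scaling over all 22 libraries. Gm10800, a predicted gene, made up 0.00819% to 71.9% of the HDM libraries, and without the predicted genes that dominated some libraries the protein-coding counts fell to 1180756 in AhR-/- HDM replicate 3, where 3 counts correspond to 1.365 CPM. The targeted genes did not check the labels. At steady state Ahr was at 15.5 to 20.1 CPM in libraries labelled AhR-/- against 6.38 to 12.3 CPM in WT, and after HDM at 12.8 to 25.5 against 9.62 to 20.0 CPM. Cyp1b1 was higher in every library labelled CYP1B1-/- than in any other library, at 3.62 to 13.5 against at most 2.31 CPM. Counts over a whole gene can include transcripts that lack a deleted part, so these levels tell neither for nor against the deletions, and each genotype below is the one given by the label. The steady-state and HDM libraries came in 2 separate tables from 2 sequencing runs. All 10 steady-state libraries held 66.6 to 249.9 CPM of Y-linked reads, and no WT or CYP1B1-/- HDM library held 1 CPM. The effect of HDM therefore cannot be told apart from that of the run or, in WT and CYP1B1-/-, from that of the sex of the mice behind these reads. In the HDM table, replicates 3 and 4 of the libraries labelled AhR-/- held reads of Y-linked genes above 1 CPM and the other 10 libraries of that table held under 1 CPM of them.

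The epithelial label was checked against markers. Epcam was at 68.2 to 312 CPM in the 22 libraries. The sum of 5 epithelial genes that include it was 1180 to 2260 CPM at steady state and 489 to 957 CPM after HDM, where 4 of the 5, all but Epcam, were called lower in WT and 4 of 5 in CYP1B1-/-, against 1 of 5 in AhR-/-. Pecam1, which encodes CD31 and marks endothelium, was at 0.507 to 21.2 CPM. Ptprc, which encodes CD45, was at 2.02 to 52.6 CPM at steady state and at 14.8 to 669 CPM after HDM. The summed level of 18 hematopoietic genes, none of which was at 0 in any library, was 34.1 to 360 CPM in WT, 43.6 to 79.5 CPM in AhR-/- and 46.1 to 69.2 CPM in CYP1B1-/- at steady state. After HDM it was 2180 to 6970 CPM in WT, 222 to 1420 CPM in AhR-/- and 416 to 7000 CPM in CYP1B1-/-. These levels move with several results below and are set beside them. In bulk RNA such as this, fewer cells of a type and less RNA per cell cannot be told apart.

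Notch2, Lfng and Hes1 differed between AhR-/- and WT after HDM, with Notch2 and Lfng lower and Hes1 higher in the libraries labelled AhR-/-. They made up 3 of the 10 genes, all of which passed the filter on low counts, in a comparison in which 22.1% of the 14161 genes tested were called at an adjusted p of at most 0.05 by the quasi-likelihood test of edgeR after Benjamini-Hochberg adjustment. The median log2 fold change was -0.10 over the 10 genes and 0.00 over all genes tested. Since results of this comparison were known when the genes were chosen, the count is given as a description. For 4 of the 10 genes, Notch2, Jag2, Lfng and Hes1, no library labelled AhR-/- overlapped with WT, while 19.5% of all genes tested did not overlap. Of the comparisons below, those that include WT or AhR-/- HDM libraries share them with this one, so their values are given side by side. Since no source ties libraries to animals, the p-values measure the spread between these libraries alone.

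**Figure D1:**
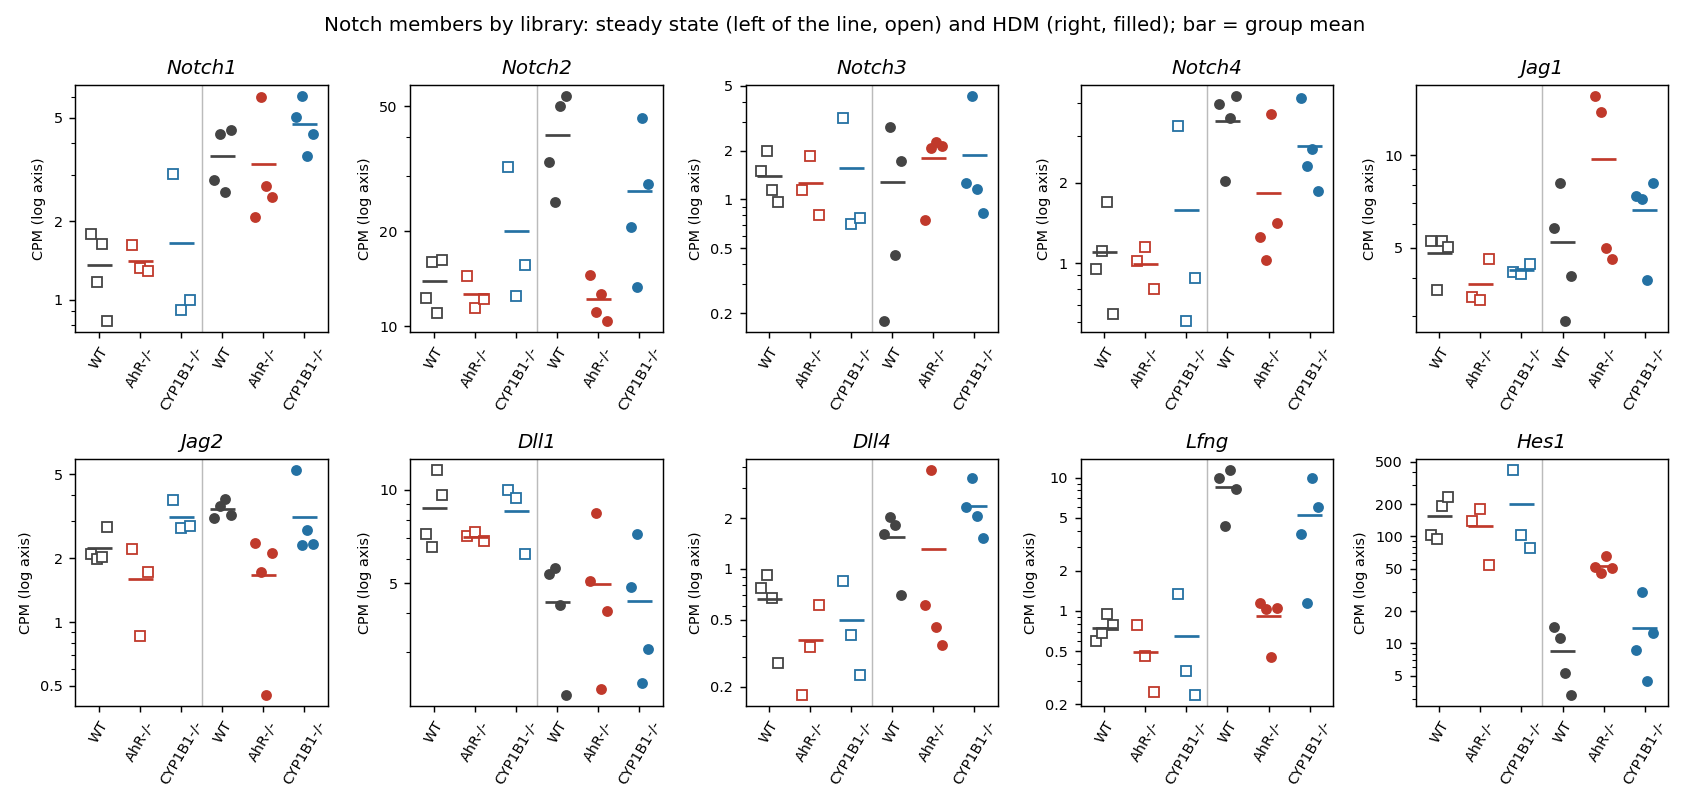
Level of each of the 10 Notch genes in CPM (log axis, each panel on its own scale) in every library, by genotype, at steady state (open squares, left of the line) and after HDM (filled circles, right of the line), with a bar at the group mean. The 4 AhR-/- HDM libraries sit at 0.455 to 1.15 CPM for Lfng, below all WT HDM libraries, and at 46 to 66 CPM for Hes1, above all of them.

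None of the 10 genes passed in the other comparisons between genotypes. After HDM, CYP1B1-/- and WT differed at 0 members, against 0% of all genes tested, and 0 members had an unadjusted p under 0.05, as had 1.65% of all genes. At steady state, 0 members passed between AhR-/- and WT, against 0% of the 15547 genes tested, and 0 had an unadjusted p under 0.05, against 1.69%. Between CYP1B1-/- and WT at steady state 0 members passed, against 0.0129% of genes, and 0 had an unadjusted p under 0.05, against 5.80%. The log2 fold changes of the members spanned -0.64 to 0.77, -0.83 to 0.03 and -0.51 to 0.47 in these 3 comparisons. The likelihood ratio test of edgeR, DESeq2 and limma voom also called 0 members in each of them.

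Between the 2 knockouts at steady state 0 members passed, against 0.00643% of all genes. Jag2 alone had an unadjusted p under 0.05, as had 4.23% of all genes, with a log2 fold change of -0.92 in AhR-/- against CYP1B1-/- (standard error, SE, 0.35, edgeR adjusted p = 0.936). After HDM 0 members passed, against 0.00706% of genes, and 3 had an unadjusted p under 0.05, against 29.9% of genes. They were Lfng, with a log2 fold change of -2.43 in AhR-/- against CYP1B1-/- (SE 0.47, edgeR adjusted p = 0.0638), Notch2 with -1.15 (0.32, 0.0638) and Hes1 with 1.90 (0.57, 0.0650). These 3 genes passed under the likelihood ratio test of edgeR, DESeq2 and limma voom, and in the quasi-likelihood test without CYP1B1-/- HDM replicate 2. Over all genes these settings called 2458, 2865 and 4303 of 14161 and 3098 of 14965. Without AhR-/- HDM replicate 2 the number of members called was also 3, with Lfng (edgeR adjusted p = 0.0182) and Hes1 (0.0471) among them and Notch2 (0.0549) not. In that fit 2683 of all 14284 genes tested were called.

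Per kilobase of exon, Hes1 was the most abundant of the 10 genes in every group, at 76.7 ± 33.5 CPM per kb (SD, n = 4) in WT at steady state and at 4.21 ± 2.52 (SD, n = 4) once WT mice had received HDM. At steady state the order below it in WT was Dll1, at 2.07 ± 0.548 CPM per kb, Notch2 at 1.29 ± 0.242, Jag1 at 0.823 ± 0.134 and Jag2 at 0.320 ± 0.0560. From Hes1 down to Jag2, each gene was parted from the next with no overlap between libraries. Lfng (0.300 CPM per kb), Notch3 (0.173), Dll4 (0.172), Notch4 (0.137) and Notch1 (0.0951) followed, and each overlapped with its neighbour in this order. After HDM in WT, Notch2 at 3.76 ± 1.27 CPM per kb and Lfng at 3.38 ± 1.23 stood next to Hes1 and all 3 overlapped, and Lfng was parted from Dll1, the next below at 1.03 ± 0.367. In AhR-/- after HDM, Hes1 at 26.2 ± 4.25 CPM per kb stood alone above Jag1 at 1.68 ± 0.995, Dll1 at 1.18 ± 0.612 and Notch2 at 1.13 ± 0.170, which overlapped, and Lfng lay at 0.368 ± 0.126. In CYP1B1-/- after HDM the order began as in WT, with Hes1, Notch2 and Lfng, and every neighbour overlapped with the next.

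**Figure D2:**
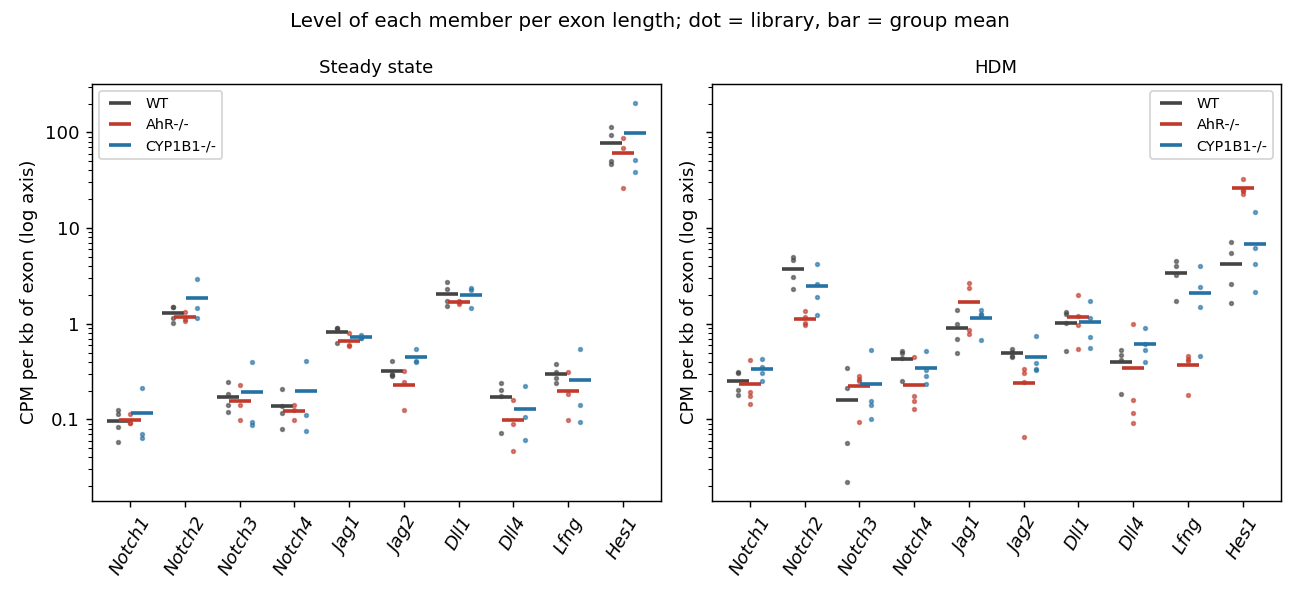
Level of each member in CPM per kb of exon (log axis) at steady state (left) and after HDM (right), with a dot for each library and a bar at the group mean. Hes1 is the highest in each group, and after HDM the bars of Lfng are at 3.38 in WT, 2.09 in CYP1B1-/- and 0.368 in AhR-/-.

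Among the receptors, Notch2 (ENSMUSG00000027878, GRCm38 chromosome 3, 98013527 to 98150361) was the most abundant, and it encodes a receptor with roles in many tissues, among them marginal zone B cells and myeloid cells. In WT it was at 12.3, 16.0, 11 and 16.2 CPM at steady state and at 33.2, 24.9, 50.1 and 53.8 CPM after HDM. All 4 HDM libraries lay above all 4 steady-state libraries. In AhR-/- it was at 14.4, 11.4 and 12.2 CPM at steady state and at 14.5, 11.1, 12.7 and 10.4 CPM after HDM, so that the HDM libraries lay below every WT HDM library and overlapped with the steady-state ones. In CYP1B1-/- it was at 32, 12.5 and 15.6 CPM at steady state and at 20.6, 13.3, 45.7 and 28.3 CPM after HDM, and the 2 states overlapped. The log2 fold change between AhR-/- and WT after HDM was -1.75 (SE 0.33, edgeR adjusted p = 0.0261), a level 0.297 times that of WT. About 5.0% of the exon length of Notch2 is shared with the predicted gene Gm42820 on the same strand.

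Notch1 (ENSMUSG00000026923, chromosome 2, 26457903 to 26516663) was at 0.828 to 1.79 CPM in WT at steady state and at 2.87, 4.31, 2.59 and 4.49 CPM after HDM. It was at 1.29 to 1.62 CPM in AhR-/- and at 0.913 to 3.05 CPM in CYP1B1-/- at steady state. After HDM the AhR-/- libraries held 2.08, 6.01, 2.73 and 2.47 CPM and the CYP1B1-/- libraries 5.05, 6.05, 3.57 and 4.33 CPM. In each genotype all HDM libraries lay above all steady-state libraries, while the 3 genotypes overlapped within each state. Between AhR-/- and WT after HDM the log2 fold change was -0.12 (SE 0.45, edgeR adjusted p = 0.878), and its sign turned when 1 of 3 libraries was left out. The antisense gene 0610009E02Rik overlaps 7.5% of the exons of Notch1, and the strand setting of the counting is not given in the sources used here.

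Notch4 (ENSMUSG00000015468, chromosome 17, 34564268 to 34588503), a receptor best known from endothelium, was at 0.955, 1.11, 1.69 and 0.644 CPM in WT at steady state and at 3.95, 2.03, 3.50 and 4.23 CPM after HDM, with no overlap. The AhR-/- HDM libraries held 1.25, 1.03, 3.64 and 1.41 CPM and the CYP1B1-/- HDM libraries 4.15, 2.31, 2.67 and 1.87 CPM. At steady state Notch4 was at 0.800 to 1.15 CPM in AhR-/- and 0.608 to 3.26 CPM in CYP1B1-/-. In AhR-/-, 3 of the 4 libraries lay below all WT HDM libraries and the fourth, replicate 3 with 8 counts, among them. The log2 fold change was -1.07 (SE 0.52, edgeR adjusted p = 0.145). Notch3 (ENSMUSG00000038146, chromosome 17, 32120820 to 32166852), known for its role in vascular smooth muscle and in airway basal cells, ranged from 0.179 to 2.79 CPM in WT after HDM and from 0.752 to 2.27 CPM in AhR-/-, on 3 to 27 counts per library. The CYP1B1-/- HDM libraries held 0.820 to 4.32 CPM, and at steady state the range was 0.966 to 1.98 CPM in WT, 0.800 to 1.84 CPM in AhR-/- and 0.71 to 3.19 CPM in CYP1B1-/-. Its log2 fold change was 0.38 (SE 0.90, edgeR adjusted p = 0.798), within the spread of the libraries.

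Among the ligands, Jag1 (ENSMUSG00000027276, chromosome 2, 137081456 to 137116644) encodes a Jagged ligand known from airway epithelium. It was at 5.25, 3.64, 5.28 and 5.02 CPM in WT at steady state and at 5.78, 8.12, 2.89 and 4.04 CPM after HDM. In AhR-/- it was at 3.47, 3.39 and 4.61 CPM at steady state and at 15.6, 13.9, 5.00 and 4.59 CPM after HDM, so that 2 of the HDM libraries lay far above the rest and 2 close to the steady state. In CYP1B1-/- it was at 4.18, 4.11 and 4.42 CPM and at 7.39, 7.20, 3.93 and 8.14 CPM. The log2 fold change between AhR-/- and WT after HDM was 0.92 (SE 0.48, edgeR adjusted p = 0.171). The 2 AhR-/- libraries with high Jag1, replicates 1 and 2, were also those with the highest summed level of 8 alveolar type 2 markers, at 73300 and 38400 CPM against 7800 and 7750 CPM in the other two. They also had the higher hematopoietic sums, 1360 and 1420 against 227 and 222 CPM, and were the 2 AhR-/- HDM libraries without Y-linked reads above 1 CPM. The part of these differences in the values of Jag1 was not tested.

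Jag2 (ENSMUSG00000002799, chromosome 12, 112907819 to 112929776), the second Jagged ligand, was at 3.09, 3.55, 3.80 and 3.21 CPM in WT after HDM and at 2.36, 1.72, 0.455 and 2.12 CPM in AhR-/-, all below WT, the third of them on 1 count. The log2 fold change was -0.96 (SE 0.47, edgeR adjusted p = 0.151), so the difference did not pass. The CYP1B1-/- HDM libraries held 5.23, 2.31, 2.72 and 2.34 CPM and overlapped with WT. At steady state Jag2 was at 1.98 to 2.81 CPM in WT, 0.862 to 2.22 CPM in AhR-/- and 2.79 to 3.76 CPM in CYP1B1-/-, where every library lay above those labelled AhR-/-.

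Dll1 (ENSMUSG00000014773, chromosome 17, 15367354 to 15376872), a Delta-like ligand, was the most abundant ligand at steady state. It was at 7.22, 6.54, 11.6 and 9.66 CPM in WT at steady state and at 5.34, 5.58, 4.26 and 2.18 CPM after HDM, with no overlap. At steady state AhR-/- held 6.83 to 7.30 CPM and CYP1B1-/- 6.19 to 10.0 CPM. After HDM it was at 5.09, 8.42, 2.27 and 4.06 CPM in AhR-/- and at 4.87, 7.20, 2.37 and 3.05 CPM in CYP1B1-/-, and the 3 genotypes overlapped. Dll4 (ENSMUSG00000027314, chromosome 2, 119325784 to 119335962), a Delta-like ligand of endothelial tip cells and of antigen-presenting cells, was at 1.61, 2.03, 1.83 and 0.705 CPM in WT after HDM, at 0.609, 3.86, 0.455 and 0.353 CPM in AhR-/- and at 2.34, 3.46, 2.06 and 1.52 CPM in CYP1B1-/-. The AhR-/- libraries spanned the WT values, with 1 to 45 counts each. At steady state Dll4 was at 0.276 to 0.926 CPM in WT, 0.180 to 0.615 CPM in AhR-/- and 0.236 to 0.851 CPM in CYP1B1-/-. Between AhR-/- and WT after HDM the log2 fold changes were 0.26 for Dll1 (SE 0.49, edgeR adjusted p = 0.737) and -0.08 for Dll4 (0.74, 0.953), and without AhR-/- HDM replicate 2 that of Dll4 was -1.62 and that of Dll1 -0.12.

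Lfng (ENSMUSG00000029570, chromosome 5, 140607320 to 140615545), the fringe enzyme whose promoter is shown above, was rare at steady state, with 0.597, 0.679, 0.948 and 0.782 CPM in WT, 0.779, 0.460 and 0.246 CPM in AhR-/- and 1.35, 0.355 and 0.236 CPM in CYP1B1-/-, on 4 to 19 counts per library. After HDM it was at 10.0, 4.31, 11.4 and 8.14 CPM in WT and at 3.79, 1.15, 10.0 and 6.03 CPM in CYP1B1-/-. The AhR-/- HDM libraries held 1.15, 1.03, 0.455 and 1.06 CPM, on 32, 12, 1 and 6 counts. Every AhR-/- HDM library therefore lay below every WT HDM library and within the range of the 10 steady-state libraries, 0.236 to 1.35 CPM. CYP1B1-/- replicate 2, on 4 counts, lay at the level of the highest AhR-/- library, and the other 3 lay between 3.79 and 10.0 CPM. In AhR-/- replicate 3 the level was below the 1.365 CPM that 3 counts make up there. The log2 fold change between AhR-/- and WT was -3.07 (SE 0.48, edgeR adjusted p = 0.0261), a level 0.119 times that of WT. Lfng ranked 3 by p-value among all genes tested. Since it was chosen with these values in view, the rank is a description only.

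Hes1 (ENSMUSG00000022528, chromosome 16, 30064384 to 30067796) encodes a basic helix-loop-helix repressor and is the textbook readout of Notch activity, although other pathways also switch it on. It was at 103, 94.9, 193 and 234 CPM in WT, 139, 180 and 54.0 CPM in AhR-/- and 418, 104 and 78.4 CPM in CYP1B1-/- at steady state. After HDM it was at 14.4, 11.2, 5.33 and 3.33 CPM in WT, 51.5, 46.0, 66.0 and 50.4 CPM in AhR-/- and 8.66, 30.0, 4.43 and 12.6 CPM in CYP1B1-/-. All 4 AhR-/- libraries lay above all 8 other HDM libraries, 3 of them below every steady-state library and the fourth within the steady-state range. The log2 fold change between AhR-/- and WT after HDM was 2.67 (SE 0.58, edgeR adjusted p = 0.0261), a level 6.36 times that of WT.

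The 3 calls between AhR-/- and WT after HDM lay close to the threshold. Each was lost when AhR-/- HDM replicate 1 (adjusted p = 0.0526 for all 3, edgeR), 3 (0.0737) or 4 (0.0735) or WT HDM replicate 3 (0.0921) or 4 (0.0808) was left out, when all genes called over the table also fell to 0, while the log2 fold changes stayed between -3.24 and -2.90 for Lfng, -1.90 and -1.51 for Notch2, and 2.40 and 2.93 for Hes1. Without the 2 AhR-/- libraries that held Y-linked reads, the log2 fold changes were -2.98 for Lfng, -1.72 for Notch2 and 2.48 for Hes1 (adjusted p = 0.202 for all 3, edgeR). No gene of the table was called in that fit. All 3 calls were also lost with the replicate number as a block, when 1 of all 14161 genes tested was called.

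**Figure D3:**
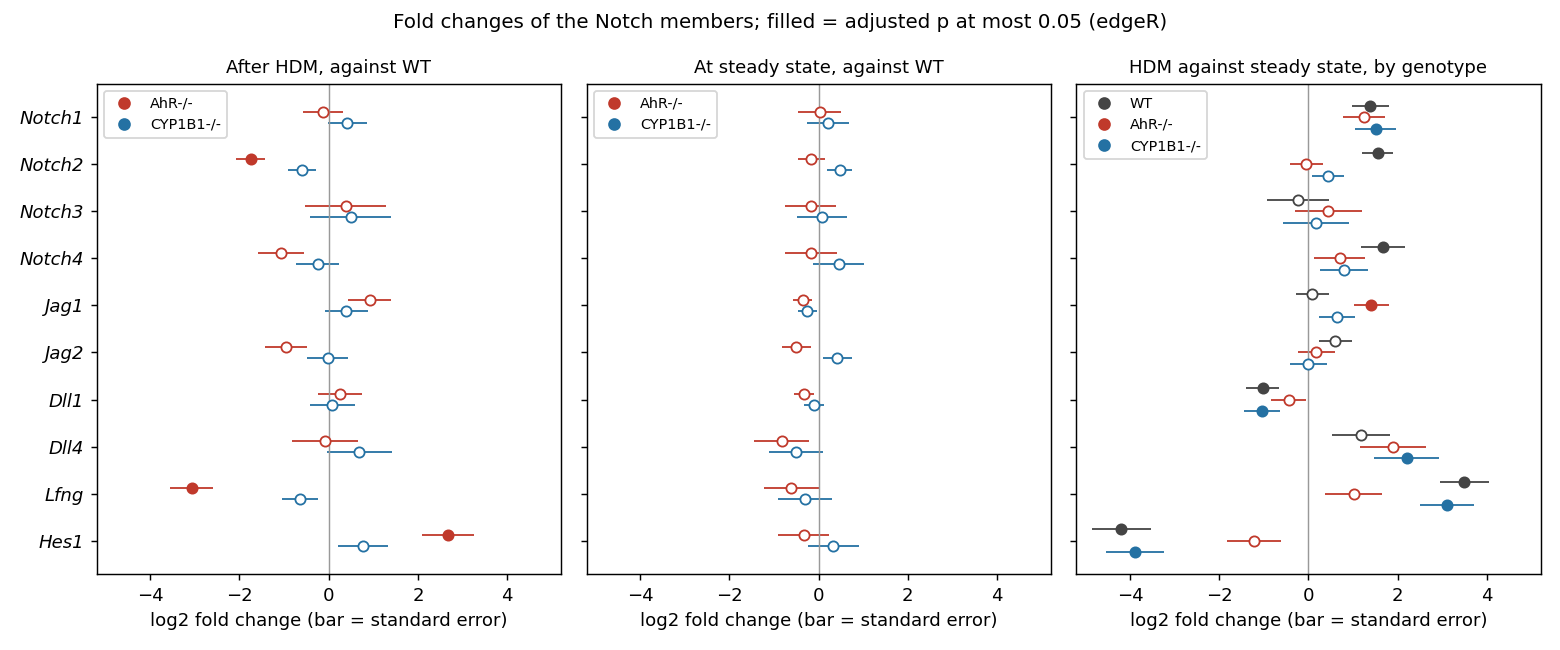
Log2 fold changes (points) with their standard errors (bars) of the 10 genes in each knockout against WT after HDM (left) and at steady state (middle), and of HDM against steady state in each genotype (right), with filled points at an adjusted p of at most 0.05. Filled points between genotypes are found only in AhR-/- after HDM, for Notch2 (-1.75), Lfng (-3.07) and Hes1 (2.67).

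HDM libraries were then compared with steady-state libraries of the same genotype. In WT, 6 of the 10 members passed, 4 higher and 2 lower, and 38.4% of the 16639 genes tested did. The higher ones were Lfng, with a log2 fold change of 3.49 (SE 0.55, edgeR adjusted p = 3.51e-05), Notch4 with 1.67 (0.49, 0.00973), Notch2 with 1.55 (0.34, 0.000923) and Notch1 with 1.39 (0.42, 0.0115). The lower ones were Hes1, with -4.19 (0.65, 3.54e-05), and Dll1, with -1.03 (0.37, 0.03). All 6 calls were lost with the mean hematopoietic level of each library as a covariate. This cut the calls over all genes from 6391 to 8, so the loss is not particular to the members. With the replicate number as a block, Notch1 (0.91, edgeR adjusted p = 0.269) and Notch4 (2.05, 0.0646) did not pass, nor did Dll1 (-0.67, 0.297). Calls over all genes then fell to 2785. The call of Dll1 was also lost without WT steady-state replicate 3 (edgeR adjusted p = 0.0975) or 4 (0.0625) or WT HDM replicate 3 (0.0624) or 4 (0.108), and its adjusted p ranged from 0.0134 to 0.838 over all settings tried. These 6 genes and Jag2 had no overlap between the 2 states in WT, which held for 38.9% of all genes tested. The 4 members that did not pass had log2 fold changes between -0.24 and 1.18. The median log2 fold change was 0.89 over the members and -0.11 over all genes.

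In CYP1B1-/-, 5 of the 10 members passed between HDM and steady state, against 33.4% of genes. Lfng, with a log2 fold change of 3.11 (SE 0.61, edgeR adjusted p = 0.000389), Dll4 with 2.20 (0.73, 0.0231) and Notch1 with 1.51 (0.46, 0.0134) were higher after HDM. Hes1, with -3.88 (0.65, 0.000108), and Dll1, with -1.04 (0.40, 0.0453), were lower. Steady-state replicate 2 stood apart from the other 2 libraries of its group, with Hes1 at 418 against 104 and 78.4 CPM, and without it the log2 fold change was -2.53 for Hes1 (edgeR adjusted p = 0.0027), 4.34 for Lfng (0.000171) and 2.49 for Notch1. With the replicate block none of the 5 passed, Hes1 having a log2 fold change of -3.11 (edgeR adjusted p = 0.116) and Lfng 3.03 (0.0765). None passed with the hematopoietic covariate either, where Hes1 had -2.87 (0.127) and Lfng 0.83 (0.767). Over all genes the calls fell from 5560 to 606 with the block and to 39 with the covariate. Notch1 and Dll4 also lost their calls without steady-state replicate 3 or 4, and Notch1 with only the compared groups in the fit. Most alternatives ended the call of Dll1, which was lost in 8 of 10 other settings and in 5 of 7 fits with 1 library left out (CYP1B1-/- steady-state replicate 2 or 3 or HDM replicate 1, 3 or 4), with adjusted p from 0.0204 to 0.764 over all of them. The other 5 members had log2 fold changes of 0.00 to 0.80. Without CYP1B1-/- steady-state replicate 3 the number of members called was 2 and without replicate 4 it was 3, with 4410 and 4544 of all genes called.

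In AhR-/-, 1 of the 10 members passed between HDM and steady state, against 20.6% of genes. It was Jag1, with a log2 fold change of 1.41 (SE 0.40, edgeR adjusted p = 0.0165), and its call was lost without AhR-/- steady-state replicate 1 (0.0693) or 3 (0.0789) or AhR-/- HDM replicate 1 (0.0791). It was also lost in 3 of 11 other settings, with adjusted p up to 0.221. Among these were the replicate block and the hematopoietic covariate, where calls over all genes fell from 3435 to 382 and 612. The number of members called was 3 without AhR-/- HDM replicate 4, with 3935 of all genes called. Notch1, with 1.25 (0.47, 0.0579), and Dll4, with 1.90 (0.74, 0.0723), had an unadjusted p under 0.05. Dll4 rested on AhR-/- HDM replicate 2, at 3.86 CPM against 0.353 to 0.609 CPM in the other 3, and without it its log2 fold change was 0.47, as that of Notch1 was 0.84. The other 7 members, Lfng and Hes1 among them, had log2 fold changes between -1.22 and 1.01 and did not pass. The median over the members was 0.57 in AhR-/- and 0.54 in CYP1B1-/-, against -0.05 and -0.02 over all genes.

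Whether the HDM effect itself differed between genotypes was tested as an interaction. Between AhR-/- and WT 0 members passed, against 0% of all genes, and 4 had an unadjusted p under 0.05, against 18.3% of all genes. These were Hes1, with an interaction of 2.97 on the log2 scale (SE 0.86, edgeR adjusted p = 0.149), Lfng with -2.49 (0.83, 0.150), Notch2 with -1.60 (0.50, 0.149) and Jag1 with 1.31 (0.54, 0.207). With DESeq2, limma voom or only the 4 compared groups in the fit, Hes1, Lfng and Notch2 passed, and with the likelihood ratio test of edgeR Hes1 alone did. Over all genes these settings called, in that order, 1221, 5042, 1001 and 221. Between CYP1B1-/- and WT 0 members passed, against 0% of genes, and Notch2 alone had an unadjusted p under 0.05, as had 2.30% of genes, with an interaction of -1.10 (SE 0.49) that ranged from -1.48 to -0.50 with 1 library left out. The value nearest 0 was that without CYP1B1-/- steady-state replicate 2, the library that stood apart. The likelihood ratio test, DESeq2 and limma voom called 0 members there.

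The hematopoietic genes differed between the same libraries as Lfng, Notch2 and Hes1. After HDM, all 18 hematopoietic genes had a log2 fold change under 0 in AhR-/- against WT, with a median of -2.45, and 11 of them passed. Of the macrophage, B cell and T cell genes tested, 1 of 7, 0 of 7 and 1 of 7 were called lower. Their median log2 fold changes were -0.67, -0.54 and -0.67. The macrophage sum was 129 to 4610 CPM in AhR-/- and 398 to 916 CPM in WT. The hematopoietic sum was 5240, 2180, 6970 and 4370 CPM in WT replicates 1 to 4 and 1360, 1420, 227 and 222 CPM in AhR-/-. In CYP1B1-/- it was 2130, 416, 7000 and 5800 CPM. CYP1B1-/- replicate 2, with the low sum of 416 CPM, was also the library of its group with the lowest Lfng and Notch2 and the highest Hes1. Replicate 3, with the highest sum, had the highest Lfng and Notch2 and the lowest Hes1 of its group. In WT, Lfng had the same order as the sum over the 4 libraries, with 4.31, 8.14, 10.0 and 11.4 CPM at sums of 2180, 4370, 5240 and 6970 CPM, while Hes1 did not, with 11.2, 3.33, 14.4 and 5.33 CPM, nor did Notch2, with 24.9, 53.8, 33.2 and 50.1 CPM. In AhR-/-, Lfng was at 1.15, 1.03, 0.455 and 1.06 CPM in replicates 1 to 4 and Notch2 at 14.5, 11.1, 12.7 and 10.4 CPM, both in another order than the sum. The AhR-/- library with the highest sum had the lowest Hes1, 46.0 CPM, which was above the 30.0 CPM of CYP1B1-/- replicate 2.

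Of 7 alveolar type 1 markers, 6 were called lower after HDM in WT, 7 in CYP1B1-/- and 0 in AhR-/-. Their summed level was 20200 to 24600 CPM in WT at steady state, 630 to 4520 CPM in WT after HDM, 3260 to 19100 CPM in AhR-/- after HDM and 443 to 4100 CPM in CYP1B1-/- after HDM. All 7 had a log2 fold change above 0 in AhR-/- against WT after HDM, with a median of 2.02, and 1 passed. The summed level of 5 club cell genes after HDM was 198 to 1830 CPM in WT, 1690 to 8080 CPM in AhR-/- and 280 to 5010 CPM in CYP1B1-/-. Between AhR-/- and WT 1 of the 5 passed, while 22.1% of all genes tested did. With the mean hematopoietic level of each library added to the fit, the log2 fold changes between AhR-/- and WT after HDM were -1.96 for Lfng, -1.21 for Notch2 and 1.54 for Hes1 (adjusted p = 0.591 for all 3, edgeR), and 0 of all genes tested were called. The same term left 0 of the 6 calls of HDM against steady state in WT, where Hes1 had a log2 fold change of -2.87 and Lfng one of 1.23. There the calls over all genes fell from 6391 to 8. The part of these cell types in the values of the members was not tested beyond this fit.

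**Figure D4:**
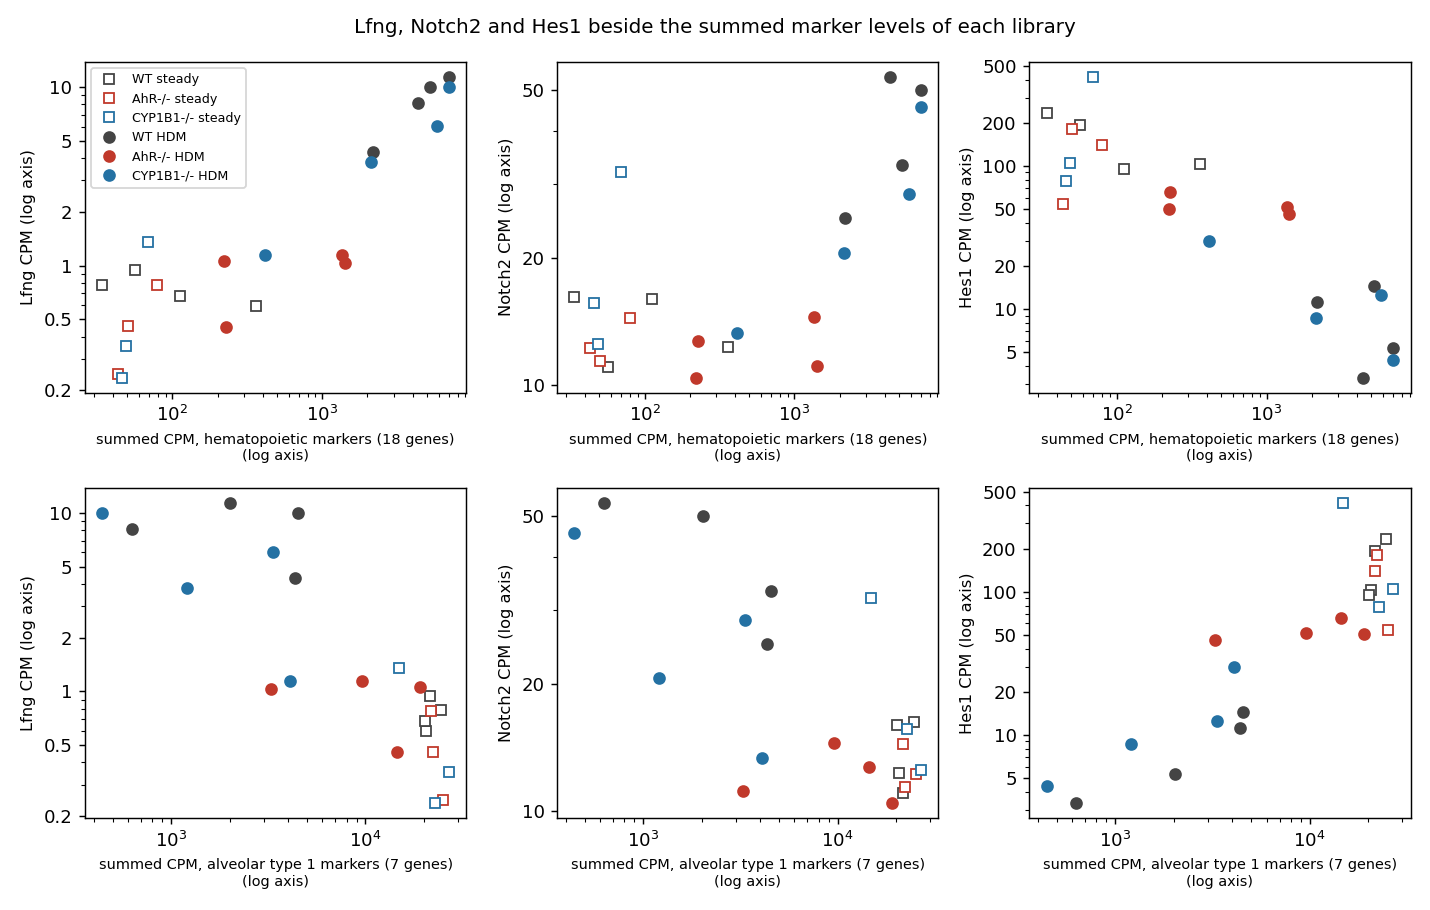
Level of Lfng, Notch2 and Hes1 in CPM against the summed CPM of 18 hematopoietic genes (top) and 7 alveolar type 1 genes (bottom) in the 22 libraries, on log axes, open for steady state and filled for HDM. The AhR-/- HDM libraries lie at 222 to 1420 CPM of the hematopoietic sum, below all WT HDM libraries and above all steady-state libraries but WT replicate 1 at 360 CPM, and CYP1B1-/- HDM replicate 2 lies beside them at 416 CPM.

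A further 52 genes of the pathway were taken as a list, of which 42 passed the filter in the HDM table. Between AhR-/- and WT after HDM 2 were higher and 7 lower, so that 9 of 42 were called, a share near the 22.1% over all genes tested, and the median log2 fold change was -0.20 against 0.00 over all genes. Rbpj, which encodes the DNA-binding partner of the Notch intracellular domain, had a log2 fold change of -1.69 (SE 0.46, edgeR adjusted p = 0.0296). Mfng, the Manic fringe enzyme, had -2.43 (0.75, 0.0399), while the other 3 genes of receptor glycosylation did not pass. Of the ligases that drive ligand endocytosis, Mib1 was higher by 0.77 (0.24, 0.0385) and Mib2 and Neurl1b were lower, with log2 fold changes of -0.82 (0.25, 0.0391) and -1.36 (0.36, 0.0281). Maml2, a Mastermind coactivator, was higher by 1.48 (0.34, 0.0261). Tle3, a Groucho-type corepressor, had a log2 fold change of -1.03 (0.20, 0.0261), and Dtx2 and Dtx3l, of the Deltex family of ubiquitin ligases, had -1.58 (0.36, 0.0261) and -1.57 (0.41, 0.0277). None of the 9 genes of receptor cleavage passed, nor did the 2 targets tested, and Hes2, Hes3, Hes5, Hes7, Hey1, Hey2 and Nrarp were too low to be tested. Without AhR-/- HDM replicate 1, 3 or 4 or WT HDM replicate 3 or 4 the number called was 0, and without WT HDM replicate 1 it was 2. The calls over all genes were then 0 and 885.

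**Figure D5:**
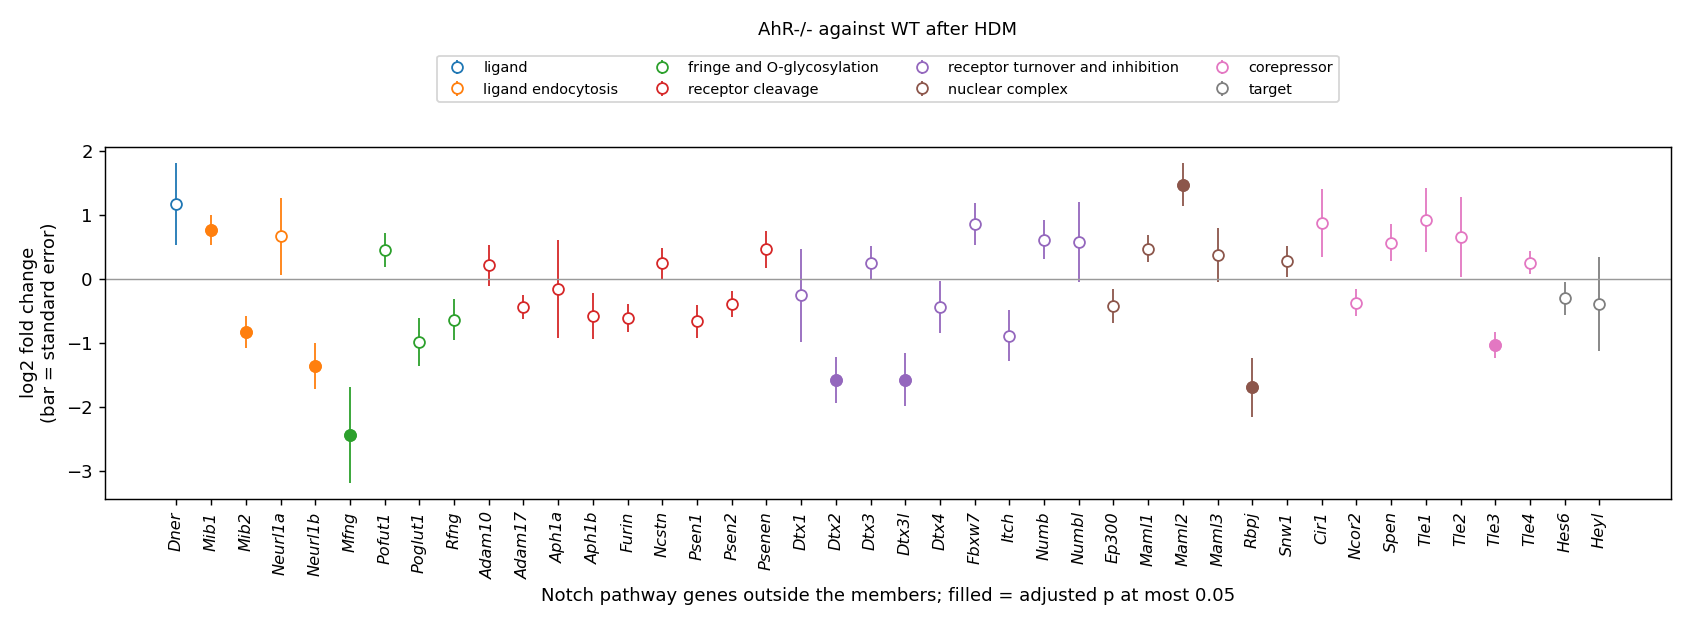
Log2 fold change with its standard error for the 42 tested pathway genes outside the 10 members in AhR-/- against WT after HDM, coloured by role, with filled points at an adjusted p of at most 0.05. Filled points lie above 0 for Mib1 and Maml2 and below 0 for 7 genes, the lowest being Mfng at -2.43.

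In the other comparisons between genotypes and in both interactions 0 genes of this list passed. Between HDM and steady state 18 of 47 tested passed in WT, 9 higher and 9 lower, with 12 in AhR-/-, 5 higher and 7 lower, and 16 in CYP1B1-/-, 7 higher and 9 lower. Over all genes 38.4%, 20.6% and 33.4% were called in these comparisons, and nothing particular to the list is read from its counts. In WT, Mfng had a log2 fold change of 5.36 (SE 0.85, edgeR adjusted p = 4.81e-05), Neurl1b 3.25, Dtx4 2.43, Rbpj 1.76, Tle3 1.67 and Ep300, a coactivator of the nuclear complex, 1.67. Lower after HDM in WT were Maml2, with -1.79, Numb, an inhibitor of Notch, with -1.69, and the protease gene Adam10, with -1.51, as were the gamma-secretase genes Aph1b, with -1.13, and Ncstn, with -1.04. Dtx2 was higher by 1.13. Of the genes named here, Adam10, Aph1b and Numb were lower and Dtx4, Ep300, Mfng and Neurl1b higher after HDM in all 3 genotypes. With the replicate block or the hematopoietic covariate fewer genes of the list were called, as given below, so these shared calls did not all hold there. Dtx4, another Deltex gene, had log2 fold changes of 2.45 in AhR-/- and 2.73 in CYP1B1-/-, and Mfng had 2.64 and 4.92.

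The genes whose log2 CPM followed that of Lfng most closely over the 12 HDM libraries were Ttc39a (Pearson's r = 0.985), Lrrc25 (0.984), Calhm2 (0.983), Rab39 (0.979) and Itpk1 (0.978). Those closest to Hes1 were Gata6 (0.981), Rbpms (0.980), Ube2e2 (0.980), Eva1a (0.978) and App (0.978). These values are the highest of all genes tested and describe 12 libraries of 3 genotypes that also differ in depth and in the marker levels above.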

How the data were processed

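Per the labels and the study's methods, the authors sorted lung epithelial cells, made full-length template-switch cDNA, sequenced it on a NextSeq500, demultiplexed with bcl2fastq 2.19.1, trimmed adapters with bbduk, aligned to mm10 with GSNAP (2020-03-12) and counted reads per Ensembl 99 gene with featureCounts 2.0.0. The strand and multimapping settings are not given in the sources used here. The deposited values are raw counts, in 1 table per state.

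Only protein-coding genes that passed filterByExpr were kept. Its minimum count of 10 sets a CPM that a gene must reach in about as many libraries as the smallest group holds, with a total of at least 15, so single libraries can hold fewer counts. After TMM scaling, quasi-likelihood tests were run in edgeR 4.0.16 (R 4.3.3), and p-values were adjusted by Benjamini-Hochberg over all genes kept. Genotypes were compared within each table, and HDM with steady state and the interactions in a fit over both tables. CPM were scaled over all 22 libraries, with a prior count of 1 for log2. The procedure was also run on simulated counts, and the outcome is not given here. Alternatives were the edgeR likelihood ratio test, DESeq2 1.42.0, limma 3.58.1 voom with sample weights, other scaling, filters and gene sets, a replicate block, a hematopoietic covariate and libraries left out.

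The members, the lists of pathway genes and markers and the tests were chosen with earlier results of these data known. By rule, all members were described in every library and in AhR-/- against WT after HDM, and elsewhere by fold where the unadjusted p was under 0.05. Pathway genes were named when called, up to 12 by p, and the 5 genes most like Lfng and Hes1 by Pearson's r. Exon annotation was from GENCODE M21 (GRCm38).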

Additional observations from a re-analysis of the deposited data

Results flagged for a closer look

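Within the groups of 4 libraries, 5 of 40 sets of member levels held a library far from the other 3 by Dixon's criterion, where chance gives about 2. On the log2 CPM scale, Notch3 was at -0.28 in AhR-/- HDM replicate 1 and at 1.09 to 1.23 in the other AhR-/- HDM libraries. Jag1 was at 1.89 in WT steady-state replicate 2, against 2.35 to 2.42 in the other WT libraries, and at 2.00 in CYP1B1-/- HDM replicate 3, against 2.86 to 3.04. Jag2 was at 1.52 in WT steady-state replicate 4, against 1.03 to 1.11. Lfng was at -0.93 in AhR-/- HDM replicate 3, on 1 count, against 0.14 to 0.28 in the other 3.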

How the results depend on the processing

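Over all alternatives, 358 counts of calls stayed within 1.5 times the reported count and 62 did not, and of the log2 fold changes 517 kept their direction and side of the threshold, 35 passed newly, 70 no longer passed and 16 changed sign. The cause was not tested. Depth limits Lfng, Dll4, Jag2, Notch3 and Notch4, which rest on few counts in several HDM libraries.

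After HDM, same-numbered libraries correlated in their deviations at -0.48 to 0.681 (median -0.1725), against -0.663 to 0.525 (0.1115) for the other pairs, which shows no pairing by number. At steady state the values were -0.022 to 0.246 (median 0.075) against -0.276 to 0.247 (-0.069). Same-numbered pairs were somewhat higher there, so pairing was not settled. With the replicate number as a block, members called fell from 3 to 0 in AhR-/- against WT after HDM (other pathway genes from 9 to 0), from 6 to 3 (18 to 9) for HDM against steady state in WT, from 1 to 0 (12 to 2) in AhR-/- and from 5 to 0 (16 to 4) in CYP1B1-/-. Over all genes the calls fell, in the same order, from 3129 to 1, 6391 to 2785, 3435 to 382 and 5560 to 606.

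With the hematopoietic covariate the members (and pathway genes) called became 0 (0) in AhR-/- against WT after HDM, and 0 (0), 0 (4) and 0 (0) for HDM in WT, AhR-/- and CYP1B1-/-. Of all genes, 0, 8, 612 and 39 were called there. Without the libraries differing in Y-linked reads the members called were 0 (0) in AhR-/- against WT after HDM and 3 for HDM in AhR-/-, with 0 and 4067 of all genes called. With the likelihood ratio test, DESeq2 and voom, AhR-/- against CYP1B1-/- after HDM had 3, 3 and 3 members (7, 8 and 14 pathway genes), HDM in AhR-/- had 3, 3 and 2 members, and the AhR-/- interaction 1, 3 and 3 (2, 4 and 14). Over all genes they called 2458, 2865 and 4303, then 4114, 4578 and 4711, and 221, 1221 and 5042. Voom called 19 pathway genes in AhR-/- against WT after HDM and 6669 of all 14161 genes. With only the compared groups in the fit, HDM in CYP1B1-/- gave 3 (8) and the AhR-/- interaction 3 (4), with 4160 and 1001 of all genes called.

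In AhR-/- against WT after HDM, log2 fold changes changed sign for Notch1 (0.01) and Dll4 (0.03) without the dominant genes, which moved the median of all genes from 0.00 to 0.15, for Notch1 (0.08) and Dll4 (0.50) without the libraries differing in Y-linked reads, and for Notch3 (-1.05) and Dll1 (-0.10) with the covariate.

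Leaving out 1 library at a time gave 0 to 3 members (0 to 11 pathway genes) in AhR-/- against WT after HDM, 0 to 3 (0 to 8) in AhR-/- against CYP1B1-/- after HDM, 5 to 6 (14 to 19) for HDM in WT, 0 to 3 (6 to 13) in AhR-/-, 2 to 6 (11 to 17) in CYP1B1-/- and 0 to 0 (0 to 3) for the AhR-/- interaction. The log2 fold changes in AhR-/- against WT after HDM then ranged from -0.64 to 0.10 for Notch1, -0.07 to 1.04 for Notch3, -0.12 to 0.47 for Dll1 and -1.62 to 0.23 for Dll4.

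Over all genes, where the quasi-likelihood test called 0, the likelihood ratio test, DESeq2 and voom called 1, 1 and 0 in CYP1B1-/- against WT after HDM, 11, 12 and 11 in AhR-/- against WT at steady state, 221, 1221 and 5042 for the AhR-/- interaction and 0, 0 and 0 for the CYP1B1-/- interaction.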
